A study of Mus musculus with 6 samples.

Results

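The mitochondrial ribosomal protein genes encode the protein subunits of the ribosome that works inside mitochondria. They were taken as the genes whose symbol is Mrpl or Mrps followed by a digit, which gave 78 of the 35688 gene rows in the table. Of these, 49 are Mrpl genes, named for the large subunit, and 29 are Mrps genes, named for the small subunit. Pseudogene rows were left out, and Mrps23, whose 2 rows held identical values, was counted once. RNA abundance was measured in 6 libraries of poly(A)-selected RNA from the mouse cell line m1102, which derives from the epithelium on the surface of the ovary. In 3 libraries the cells had received 10 ng/mL TGFB1 over 4 days, and 3 came from untreated cells. TGFB1 is a secreted growth factor with known roles in matrix deposition and in the shift of epithelial cells to a mesenchymal state. Both groups are of this single line and grew in the same serum medium with ITSS and EGF. The labels do not say whether the 3 samples of a group were separate cultures, so the spread behind the p-values may be technical in part or in whole.

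The mitochondrial ribosome translates the messenger RNAs encoded in mitochondrial DNA, which in mammals specify subunits of the oxidative phosphorylation complexes. Its ribosomal RNAs are transcribed inside the organelle, whereas all of its proteins are made from nuclear genes and imported. Some of these proteins have a counterpart in the bacterial ribosome and others occur in mitochondria alone. The letter in the symbol mostly tells the subunit, with exceptions known from structures of the mammalian particle. The proteins of Mrps18a and Mrps30 sit in the large subunit, and the protein of Mrps36 is a subunit of the 2-oxoglutarate dehydrogenase complex.

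Abundances are given as deposited, on a scale close to TPM, which corrects for transcript length and depth. The column totals lay between 983434 and 1026702 and between 17758 and 19288 genes had a value above 0. The table holds no read counts, so the depth of the libraries is unknown. TGFB1 replicate 1 stood apart on the first principal component (70.7% of the variance), with a score of 46.62 beside 20.22 and 18.06 for TGFB1 replicates 2 and 3 and scores of -29.85 to -27.07 for untreated libraries. Markers of ovarian surface epithelium were present (Krt7, Krt18, Wt1, Upk3b, Msln, Gata4 and Gpm6a, 7 of 10 listed), and Krt8, Krt19 and Lhx9 fell under the filter of a mean of 1 TPM. Gpm6a had 12.2, 42.8 and 43.7 TPM with TGFB1 against 140, 150 and 131 TPM in untreated cells, and it fell together with Krt7, Krt18 and Upk3b. Among leukocyte markers Cd68 passed the filter and fell (log2 fold change -1.27), and Ptprc, Cd3e and Adgre1 were at 0.0843 TPM or less in every library. Pecam1 of 4 endothelial markers, Foxl2 of 4 granulosa markers and Star of 4 theca markers passed the filter, of which Foxl2 rose (0.28) and Star fell (-1.15). Fshr and Lhcgr, the gonadotropin receptors of granulosa and theca cells, were at 0 in every library.

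All 78 genes passed the filter of a mean of 1 TPM. After TGFB1, 19 of the 78 (24.4%) fell and 3 (3.85%) rose, where 14.6% of all 12257 tested genes fell and 15.8% rose. Changes were tested with limma on log2(TPM + 1), and a gene was called at a Benjamini-Hochberg adjusted p under 0.05 over all tested genes, which called 30.4% of them. The falls were of modest size, with means in TGFB1 libraries between 61.7% of the untreated mean for Mrpl23 and 85.6% for Mrps18a. The median log2 fold change of the 78 genes was -0.08, beside 0.02 for all tested genes, and 53 of the 78 (67.9%) were below 0, beside 48.2% of all tested genes. In 28 of the 78 genes all TGFB1 libraries were below all untreated libraries, which held for 23.6% of all tested genes, and in 9 they were above, which held for 26.3%. With bulk RNA, fewer cells of a type and less RNA per cell cannot be told apart. Of 10 markers of surface epithelium 4 fell and 0 rose, 3 were not called and 3 were under the filter, and their part in these falls was not tested.

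**Figure D1:**
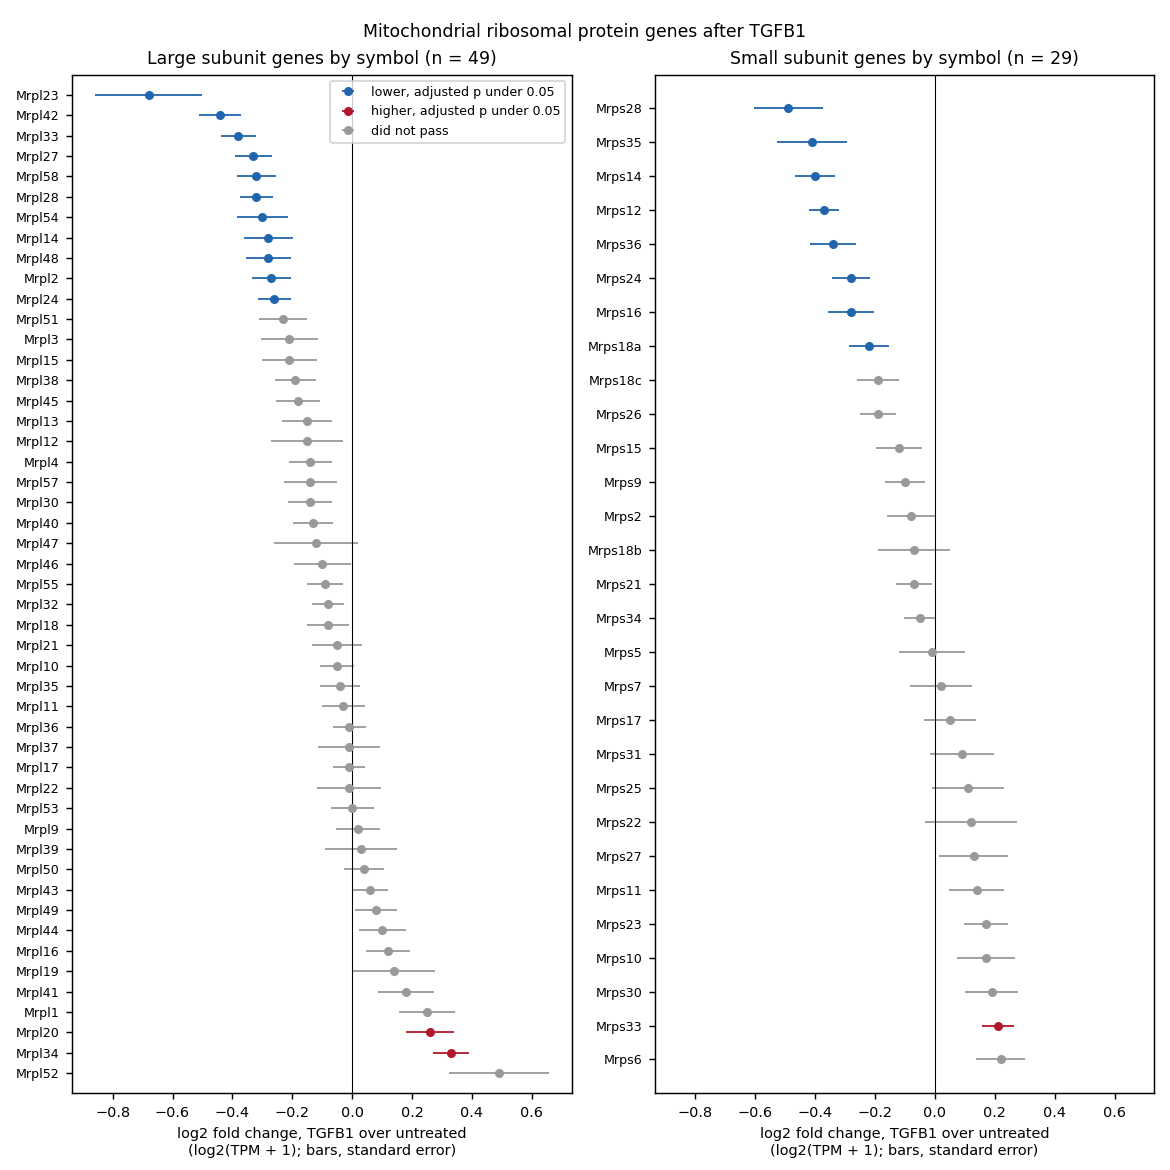
Log2 fold change of each mitochondrial ribosomal protein gene, TGFB1 over untreated, on the log2(TPM + 1) scale (x axis; bars, standard error), with large subunit genes on the left and small subunit genes on the right, ordered by fold change (y axis). Values run from -0.68 for Mrpl23 to 0.49 for Mrpl52, and most genes lie left of 0.

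Among the 49 large subunit genes, 11 (22.4%) fell and 2 (4.08%) rose, and the median log2 fold change was -0.09. Mrpl33, the counterpart of bacterial bL33, had 231, 229 and 234 TPM in TGFB1 libraries (replicates 1 to 3, in this order throughout) against 300, 284 and 321 TPM in untreated libraries. Its log2 fold change was -0.38 (SE 0.0597, adjusted p = 0.00503). The TGFB1 values lay close together and below every untreated value. Mrpl42, a protein that the bacterial ribosome lacks, had 134, 125 and 127 TPM with TGFB1 against 185, 161 and 179 TPM in untreated cells (log2 fold change -0.44, SE 0.07, adjusted p = 0.00518). Mrpl28, the counterpart of bacterial bL28, had 98.7, 101 and 95.0 TPM with TGFB1 against 124, 118 and 127 TPM in untreated cells (-0.32, SE 0.0563, adjusted p = 0.0074). In both genes the groups did not overlap, and untreated replicate 2 was the lowest of the untreated libraries.

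Mrpl27 encodes the counterpart of bacterial bL27, a protein whose tail reaches the peptidyl transferase centre in bacteria. It had 88.2, 80.9 and 89.3 TPM with TGFB1 against 111, 105 and 110 TPM in untreated cells (log2 fold change -0.33, SE 0.0626, adjusted p = 0.0093). Of its transcript sequence 38.9% also occurs in another gene, which makes its level uncertain. Mrpl58 encodes a peptidyl-tRNA hydrolase that became a structural protein of the large subunit and is known for releasing stalled chains. It had 79.2, 74.1 and 78.1 TPM with TGFB1 against 100, 90.2 and 98.8 TPM in untreated cells (-0.32, SE 0.0644, adjusted p = 0.0124). Mrpl23, whose bacterial counterpart lines the exit of the peptide tunnel, showed the largest fall of the 78 genes and also the widest spread among the genes called. Its levels were 16.5, 19.3 and 11.6 TPM with TGFB1 against 29.2, 23.3 and 24.4 TPM in untreated cells (-0.68, SE 0.18, adjusted p = 0.0297). Here TGFB1 replicate 3 was lowest and untreated replicate 1 highest, and the groups did not overlap. Of the transcript sequence of Mrpl23, 14.2% also occurs in another gene. A pseudogene named after it, Mrpl23-ps1, has 95.5% of its sequence in another gene and stood higher. Its means were 116 TPM with TGFB1 and 125 TPM in untreated cells. How reads were split between these rows is not known, which makes the size of the Mrpl23 fall uncertain.

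The other 5 large subunit genes that fell did so by 0.26 to 0.30 on the log2 scale. Mrpl14 encodes a protein at the face that joins the small subunit, and Mrpl2 a conserved protein near the catalytic centre. Mrpl14 had 124, 147 and 151 TPM with TGFB1 against 170, 168 and 173 TPM in untreated cells (-0.28, adjusted p = 0.0426), with TGFB1 replicate 1 the lowest. Mrpl54 showed the same order, with 94.0, 110 and 113 TPM with TGFB1 against 138, 126 and 128 TPM in untreated cells (-0.30, adjusted p = 0.0352). Mrpl2 (-0.27, adjusted p = 0.0237), Mrpl48 (-0.28, adjusted p = 0.0307) and Mrpl24 (-0.26, adjusted p = 0.0139) also fell without overlap of the groups. Of the transcript sequence of Mrpl24, 27.2% also occurs in another gene.

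The rises in the large subunit were those of Mrpl34 and Mrpl20, both with bacterial counterparts. Mrpl34 had 149, 142 and 150 TPM with TGFB1 against 110, 119 and 122 TPM in untreated cells (log2 fold change 0.33, SE 0.0607, adjusted p = 0.00888). Mrpl20, whose bacterial counterpart binds early in assembly of the large subunit, had 117, 109 and 102 TPM with TGFB1 against 96.1, 83.8 and 93.2 TPM in untreated cells (0.26, SE 0.0791, adjusted p = 0.0451). Neither gene's groups overlapped. Mrpl52, a protein of mitochondria alone, had the largest positive value, 0.49 (SE 0.167), and did not pass (adjusted p = 0.0663). Its levels were 266, 178 and 178 TPM with TGFB1 against 163, 132 and 141 TPM in untreated cells. TGFB1 replicate 1 stood far above the other TGFB1 libraries, and the gene was called without it, with the replicate block and with a rescaling that left out mitochondrially encoded and abundant genes.

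**Figure D2:**
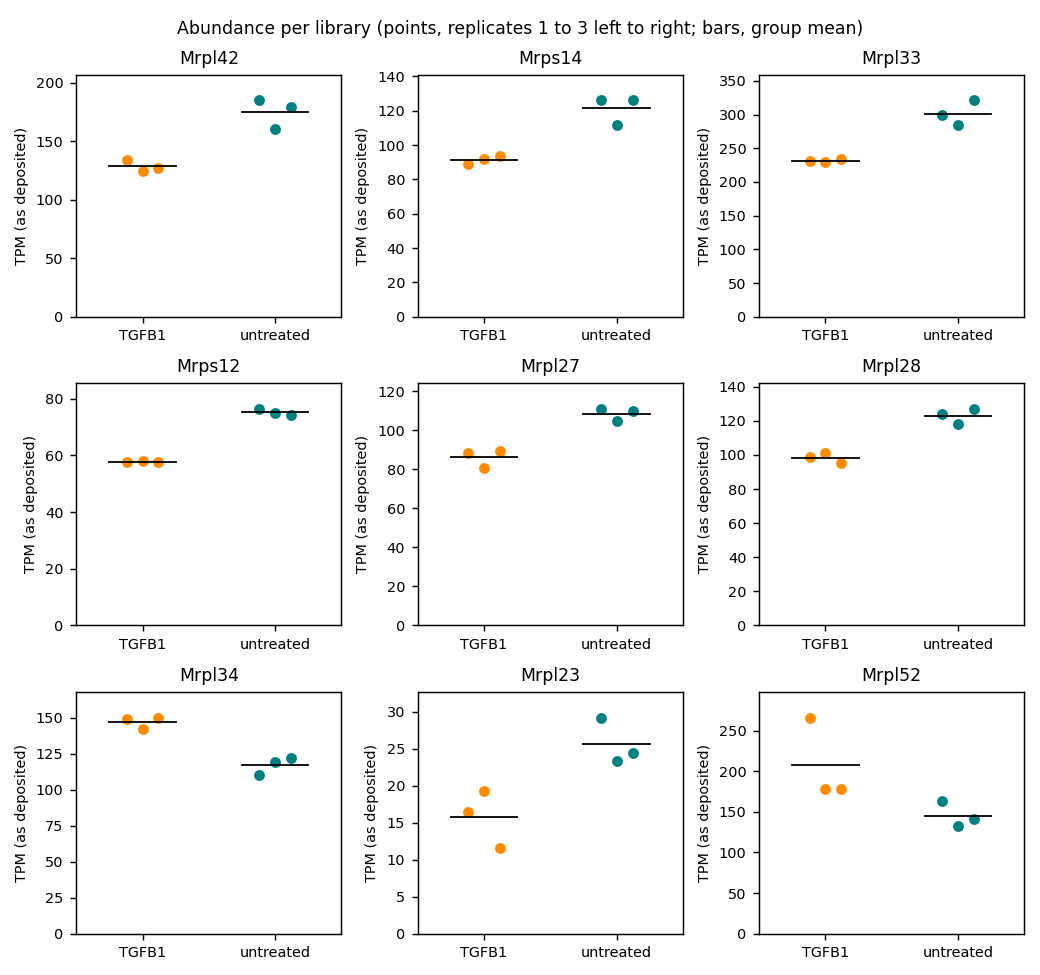
Abundance of 9 mitochondrial ribosomal protein genes in each library (y axis, deposited TPM scale from 0; x axis, TGFB1 left and untreated right; points, replicates 1 to 3; bars, group means). In Mrps12 the TGFB1 points lie between 57.6 and 58.1 TPM and the untreated points between 74.2 and 76.4 TPM, while in Mrpl52 the TGFB1 points spread from 178 to 266 TPM.

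Among the 29 small subunit genes, 8 (27.6%) fell and 1 (3.45%) rose, and the median log2 fold change was -0.07. Mrps12 encodes the counterpart of bacterial uS12, a protein of the decoding centre. It had 57.6, 58.1 and 57.6 TPM with TGFB1 against 76.4, 75.0 and 74.2 TPM in untreated cells (log2 fold change -0.37, SE 0.0509, adjusted p = 0.00306), the lowest adjusted p of the 78 genes. Mrps14, the counterpart of bacterial uS14 in the head of the subunit, had 89.1, 91.7 and 93.5 TPM with TGFB1 against 126, 112 and 126 TPM in untreated cells (-0.40, SE 0.0677, adjusted p = 0.00633). The replicates of Mrps12 lay close together in both groups, whereas in Mrps14 untreated replicate 2 stood below the other untreated libraries. Mrps28 showed the largest fall in the small subunit, with 40.0, 34.4 and 33.3 TPM with TGFB1 against 58.9, 45.3 and 49.2 TPM in untreated cells (-0.49, SE 0.115, adjusted p = 0.0197). Mrps35, a protein of mitochondria alone, had 25.8, 24.4 and 29.1 TPM with TGFB1 against 41.7, 33.1 and 32.3 TPM in untreated cells (-0.41, SE 0.117, adjusted p = 0.0374). In both genes untreated replicate 1 was the highest library.

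Mrps24, the counterpart of bacterial uS3 at the entry of the messenger RNA channel, had 116, 111 and 102 TPM with TGFB1 against 135, 131 and 133 TPM in untreated cells (log2 fold change -0.28, adjusted p = 0.0181). Mrps16, the counterpart of bacterial bS16, had 31.7, 27.6 and 27.5 TPM with TGFB1 against 36.5, 33.8 and 35.7 TPM in untreated cells (-0.28, adjusted p = 0.0342). Mrps36, whose protein belongs to the 2-oxoglutarate dehydrogenase complex, had 100, 113 and 103 TPM with TGFB1 against 138, 123 and 140 TPM in untreated cells (-0.34, adjusted p = 0.0174). These 3 genes showed no overlap between the groups. The 1 rise was that of Mrps33, a small protein of mitochondria alone, with 140, 129 and 132 TPM with TGFB1 against 116, 116 and 115 TPM in untreated cells (0.21, SE 0.0544, adjusted p = 0.03).

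Mammals carry 3 genes of the S18 family, and their values differed in size. Mrps18a, whose protein sits in the large subunit, had 73.8, 82.2 and 82.3 TPM with TGFB1 against 90.9, 96.7 and 91.1 TPM in untreated cells and fell (log2 fold change -0.22, adjusted p = 0.0432). Mrps18c, which takes the place of bacterial bS18, had a value of -0.19 (adjusted p = 0.0811) and Mrps18b one of -0.07 (adjusted p = 0.705). Mrps18b had 94.0, 68.5 and 72.0 TPM with TGFB1 against 83.7, 77.4 and 82.4 TPM in untreated cells. TGFB1 replicate 1 was its highest library, and Mrps18b was called lower without that library. Mrps18b and Mrps18c share 31.6% and 34.5% of their transcript sequence with other genes, and the difference between the 3 genes was not tested. The proteins of the stalk and its base, where translation factors dock, come from Mrpl10, Mrpl11 and Mrpl12. None of these 3 genes was called, with log2 fold changes of -0.05, -0.03 and -0.15 (adjusted p = 0.52, 0.782 and 0.373), and none of them had an unadjusted p under 0.05. Mrpl12, also known for binding the mitochondrial RNA polymerase, had 95.0, 77.0 and 76.1 TPM with TGFB1 against 104, 81.2 and 91.2 TPM in untreated cells. Mrpl57 (-0.14, adjusted p = 0.272) and Mrps30 (0.19, adjusted p = 0.155) did not pass either.

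The 78 transcripts differed 40.0-fold in mean level, around a median of 66.4 TPM. Mrps21 was the most abundant, with 403, 439 and 448 TPM with TGFB1 against 444, 440 and 469 TPM in untreated cells, and it was not called (-0.07, adjusted p = 0.416). Mrpl33 with a mean of 267 TPM and Mrpl17 with 249 TPM led the large subunit, and Mrps33 with 125 TPM came second in the small subunit. Mrpl17 differed little between the groups (-0.01, SE 0.0543), with overlapping values. The least abundant transcripts were Mrpl1 at a mean of 11.0 TPM and Mrpl39 at 18.7 TPM in the large subunit, and Mrps6 at 16.7 TPM and Mrps30 at 17.0 TPM in the small subunit. Mrpl1 and Mrps6 had positive values of 0.25 and 0.22 that did not pass (adjusted p = 0.0868 and 0.0892), with all TGFB1 libraries above all untreated ones.

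Summed over the large subunit genes, the transcripts came to 3880, 3649 and 3671 TPM with TGFB1 against 4128, 3810 and 4112 TPM in untreated cells. The small subunit genes summed to 2144, 2063 and 2064 TPM with TGFB1 against 2301, 2144 and 2273 TPM in untreated cells. The treated means were 93.0% of the untreated mean for the large and 93.4% for the small subunit. TGFB1 replicate 1 lay above the lowest untreated library in the large subunit sum, and in the small subunit sum the highest TGFB1 library, at 2143.7 TPM, lay just under the lowest untreated one, at 2144.1 TPM. The 19 genes that fell were not lowest in a particular treated library, since 7 were lowest in TGFB1 replicate 1, 7 in replicate 2 and 5 in replicate 3.

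With the subunit taken from the structure, and with Dap3, Ptcd3, Aurkaip1, Chchd1 and Gadd45gip1 added as subunits with other symbols, 12 of 52 large subunit genes fell and 2 rose. In the small subunit 7 of 30 fell and 1 rose. The shares that fell were 23.1% for the large and 23.3% for the small subunit, beside 14.6% of all tested genes. The shares that rose were 3.85% and 3.33%, beside 15.8% of all tested genes. Of the 46 genes whose protein is named in the structure after a bacterial ribosomal protein, 12 (26.1%) fell and 2 (4.35%) rose. Their median log2 fold change was -0.09. Of the 36 genes whose protein has a name for mitochondrial proteins in the structure, 7 (19.4%) fell and 1 (2.78%) rose, with a median of -0.05. This class follows the names and includes Mrps18a and Mrps18b of the S18 family and the hydrolase gene Mrpl58. It is therefore not limited to proteins of mitochondria alone. The difference between these classes was not tested. Among the 5 added subunits only Dap3 was called. Dap3, a GTP-binding protein of the small subunit also known from apoptosis, had 84.4, 87.5 and 90.2 TPM with TGFB1 against 112, 107 and 104 TPM in untreated cells (-0.30, SE 0.0571, adjusted p = 0.0104).

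Reads of near-identical sequence can be split between genes. Among genes with under 25% of their 31-base words in another gene, 9 of 42 large subunit genes (21.4%) fell and 2 (4.76%) rose. Of 25 such small subunit genes 8 (32.0%) fell and 1 (4.0%) rose. Over all tested genes 14.6% fell and 15.8% rose. The 11 genes at or over that share include Mrpl53 (84.4%), Mrps34 (73.8%) and Mrps25 (68.9%), none of which was called. As a description across genes, which are not independent replicates, the Spearman correlation of the fold change with mean level was -0.29 over the 78 genes and -0.09 over 11402 tested protein-coding genes. The correlation with transcript length was 0.14 over the 78 genes and 0.1 over the 11402. The median transcript length was 700 bases for the genes that fell, 900.5 bases for those not called and 1370.5 bases for tested protein-coding genes.

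**Figure D3:**
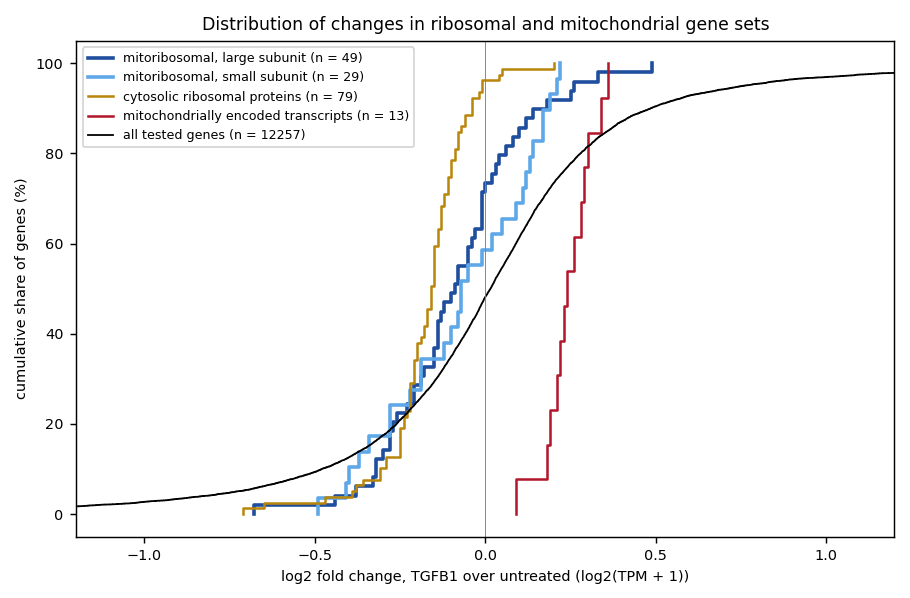
Cumulative share of genes (y axis, %) at or below each log2 fold change, TGFB1 over untreated (x axis, cut at -1.2 and 1.2), for large and small subunit mitochondrial ribosomal protein genes, cytosolic ribosomal protein genes, mitochondrially encoded transcripts and all tested genes. The medians of the large (-0.09) and small (-0.07) subunit genes lie between those of the cytosolic ribosomal proteins (-0.16) and of all tested genes (0.02). The mitochondrially encoded transcripts lie to the right (median 0.24). In the left tail the curves cross, since no small subunit gene lies below -0.49.

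Of the 22 calls, 7 were kept in all 15 refits with another setting or with a library left out. These were the falls of Mrpl27, Mrpl28, Mrpl33, Mrpl42, Mrps12 and Mrps14 and the rise of Mrpl34. No called gene changed sign in any refit. The calls of Mrpl24 and Mrpl58 were lost without untreated replicate 3 alone, that of Mrps28 without TGFB1 replicate 2 or 3 or untreated replicate 3, and that of Mrps36 without TGFB1 replicate 3 or untreated replicate 1 or 3. Mrpl2 and Mrps24 lost theirs without TGFB1 replicate 2 or 3 or untreated replicate 1 or 3, and Mrpl23 without any 1 of the untreated libraries. Mrpl14, Mrpl48 and Mrpl54 lost theirs without TGFB1 replicate 2 or any untreated library, Mrps35 also without TGFB1 replicate 1, and Mrps16, Mrps18a and Mrps33 without TGFB1 replicate 2 or 3 or any untreated library. Mrpl20 was called only with all 6 libraries. Without the filter on low values the calls of Mrpl14, Mrpl20, Mrpl23, Mrpl48, Mrpl54, Mrps16, Mrps18a and Mrps35 were lost. A rescaling that left out mitochondrially encoded and abundant genes ended those of Mrpl14, Mrpl48, Mrpl54, Mrps16, Mrps18a and Mrps35. Quantile normalization ended the call of Mrpl14, the replicate block those of Mrpl48 and Mrpl54, and median-of-ratios scaling that of Mrpl20. Without TGFB1 replicate 1, the library that stood apart, 15 large and 9 small subunit genes fell and 2 of each rose. Of the 17 large and 11 small subunit genes called then, 12 and 8 were also called with all libraries.

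**Figure D4:**
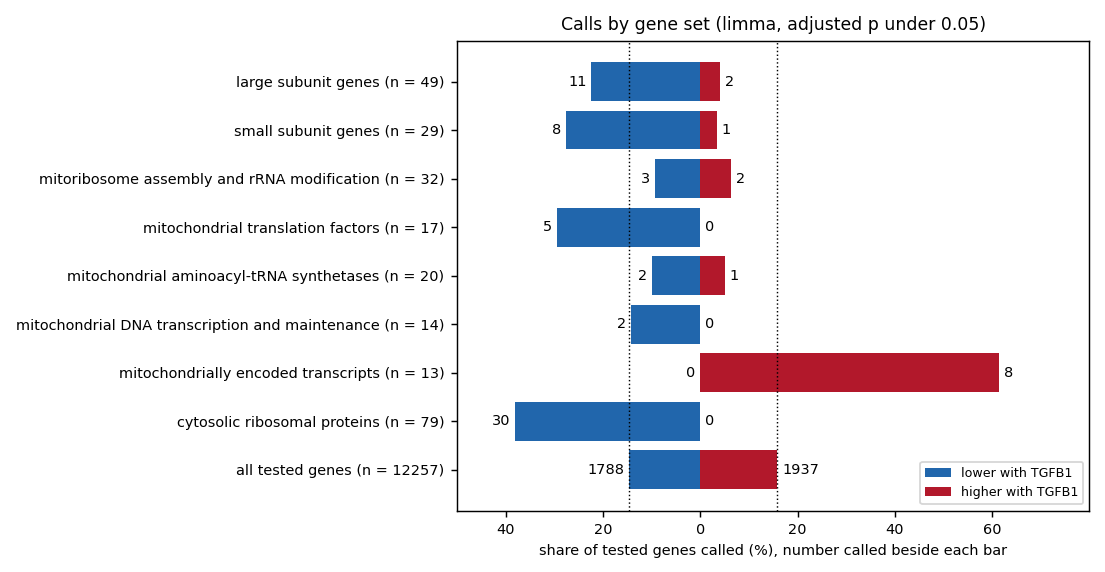
Share of tested genes called (x axis, %; left, lower with TGFB1; right, higher; number called beside each bar) in each gene list (y axis) by limma at an adjusted p under 0.05. Dotted lines mark the shares over all tested genes, 14.6% lower and 15.8% higher, and 11 of 49 large and 8 of 29 small subunit genes lie on the lower side.

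The proximal promoters of the 7 genes with the calls kept throughout are printed because these calls did not depend on a setting or a library. Sequences are from RefSeq on GRCm38.p6, 70 bases before to 30 bases from the transcript start, 5' to 3' on the gene's strand. Capitals mark complete matches to 4 motifs of factors known to act at such genes, searched on both strands: the ETS motif CCGGAAG of the GABP class, the NRF1 core GCATGCG, the YY1 motif AAGATGG and the E-box CACGTG. The windows are Mrpl27 at chr11:94653721-94653820 (+ strand), Mrpl28 at chr17:26123433-26123532 (+), Mrpl33 at chr5:31613881-31613980 (+), Mrpl42 at chr10:95501920-95502019 (- strand), Mrps12 at chr7:28741792-28741891 (-), Mrps14 at chr1:160195145-160195244 (+) and Mrpl34 at chr8:71464856-71464955 (+). The RefSeq start of Mrpl33 lies 17016 bases from the start of the GENCODE gene.
Mrpl27: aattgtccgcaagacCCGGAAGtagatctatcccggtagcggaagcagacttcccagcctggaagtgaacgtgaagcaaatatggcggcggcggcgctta
Mrpl28: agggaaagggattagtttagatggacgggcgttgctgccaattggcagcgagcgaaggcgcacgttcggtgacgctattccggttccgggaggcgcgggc
Mrpl33: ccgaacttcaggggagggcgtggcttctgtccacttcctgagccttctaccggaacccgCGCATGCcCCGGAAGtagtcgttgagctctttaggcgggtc
Mrpl42: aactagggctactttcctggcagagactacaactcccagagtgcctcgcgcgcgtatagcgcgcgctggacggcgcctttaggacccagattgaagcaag
Mrps12: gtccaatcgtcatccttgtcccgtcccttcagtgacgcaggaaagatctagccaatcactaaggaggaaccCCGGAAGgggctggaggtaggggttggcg
Mrps14: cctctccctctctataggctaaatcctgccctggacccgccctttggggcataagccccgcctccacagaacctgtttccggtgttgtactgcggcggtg
Mrpl34: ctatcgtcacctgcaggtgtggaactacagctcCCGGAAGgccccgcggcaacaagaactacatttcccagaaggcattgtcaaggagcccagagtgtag

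The ETS motif lies in the printed windows of Mrpl27, Mrpl33 and Mrps12, which fell, and of Mrpl34, which rose. In Mrpl33 it stands next to an NRF1 core match on the opposite strand, the only such match in the 7 windows. Mrpl28 and Mrps14 held no match to any of the motifs in the full promoter. Full promoters, from 250 bases before to 50 bases after the start, were given for 69 of the 78 genes. The ETS motif was found in 26 of the 69 (37.7%), beside 21.4% of 8953 tested genes and 9.93% of all 27018 genes with a promoter. It was found in 7 of the 16 genes with a promoter that fell, in 2 of the 3 that rose and in 17 of the 50 not called. The YY1 motif was found in 18.8% of the 69 genes and 8.86% of the tested genes, and in 7.28% of all genes. The NRF1 core was found in 11.6% of the 69 genes, 7.73% of the tested genes and 4.02% of all genes. The E-box was found in 7.25% of the 69 genes, 12.1% of the tested genes and 8.09% of all genes. Counted per promoter, since a gene can have several, the shares over 75 promoters of these genes and all 32841 promoters were 34.7% and 8.86% for the ETS motif, 17.3% and 6.34% for YY1, 10.7% and 3.58% for the NRF1 core and 9.33% and 7.15% for the E-box. A match describes these letters only and is not a site of binding.

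The genes lie on 17 chromosomes, with 11 on chromosome 11 and 8 on chromosome 17. A protein-coding gene started on the other strand within 1000 bases of 33 of the 78 (42.3%), beside 17.4% of 11413 tested protein-coding genes. Pairs of genes that overlap at their starts were counted too. Of the 33 neighbours 4 rose, 4 fell, 22 were not called and 3 were under the filter. Over all tested genes 15.8% rose and 14.6% fell. Of the 19 genes that fell, 6 had such a neighbour, of which 2 rose, 4 were not called and 0 fell. With only 6 neighbours and a share of 14.6% over all tested genes, a count of 0 says little. Mrpl14 lies head to head with Tmem63b, which had 73.1, 71.0 and 72.0 TPM with TGFB1 against 43.5, 51.6 and 49.5 TPM in untreated cells and rose (log2 fold change 0.57, adjusted p = 0.00282). The neighbour of Mrpl48, Rab6a, encodes a vesicle transport GTPase and rose (0.29, adjusted p = 0.0104). Its annotated start lies inside Mrpl48, so these genes overlap. Mrps12 shares its start region with Sars2, the mitochondrial seryl-tRNA synthetase, which was not called (-0.01, adjusted p = 0.972). Conversely Mrpl36, at 103, 104 and 106 TPM with TGFB1 against 101, 104 and 109 TPM in untreated cells, was not called. Its neighbour Ndufs6, a complex I subunit, fell to 257, 256 and 253 TPM with TGFB1, against 344, 329 and 346 TPM in untreated cells (-0.41, adjusted p = 0.00194). Mrpl47 and the complex I gene Ndufb5 formed a like pair, with values of -0.12 (adjusted p = 0.547) and -0.58 (adjusted p = 0.00103). Mrpl46 and Mrps11 overlap at their starts and are each other's neighbour, and neither was called. Strand use in counting is not stated, so reads of overlapping genes may not be told apart.

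Of 32 genes for assembly of the mitochondrial ribosome and modification of its RNA, 3 (9.38%) fell and 2 (6.25%) rose. Both shares were below those of all tested genes, of which 14.6% fell and 15.8% rose. Malsu1, the protein of which binds the Mrpl14 protein and holds the subunits apart during assembly, had 31.8, 31.3 and 32.1 TPM with TGFB1 against 46.9, 44.2 and 50.7 TPM in untreated cells (log2 fold change -0.56, SE 0.0685, adjusted p = 0.00226). Its call was kept in every refit, although 40.2% of its sequence is shared with another gene. Fastkd2, an RNA-binding protein of mitochondrial RNA granules (-0.38, adjusted p = 0.0293), and the protease gene Afg3l2 (-0.20, adjusted p = 0.0373) also fell. The RNA methyltransferase gene Mettl15 (0.68, adjusted p = 0.0219) and the protease gene Spg7 (0.31, adjusted p = 0.0141) rose. In this list 5 genes fell without TGFB1 replicate 1 and 1 fell without TGFB1 replicate 2 or 3 or untreated replicate 1 or 3, and none rose without untreated replicate 3.

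Of 17 mitochondrial translation factors 5 (29.4%) fell and 0 rose by limma, beside 14.6% and 15.8% of all tested genes. With an unadjusted p under 0.05, 6 had negative and 1 had positive values. The release factor gene Mtrf1l had 5.69, 6.80 and 4.98 TPM with TGFB1 against 9.90, 10.4 and 8.97 TPM in untreated cells (log2 fold change -0.66, SE 0.121, adjusted p = 0.00844). The elongation factor gene Guf1 had 15.2, 13.0 and 14.1 TPM with TGFB1 against 20.6, 19.5 and 19.7 TPM in untreated cells (-0.47, adjusted p = 0.00582), and both calls were kept in every refit. Genes that process the first residue of new chains, Pdf (-0.73, adjusted p = 0.0148, with 76.5% shared sequence) and Metap1d (-0.53, adjusted p = 0.0356), fell too. Oxa1l, which inserts new chains into the inner membrane, had 18.7, 19.1 and 20.5 TPM with TGFB1 against 23.9, 24.6 and 23.2 TPM in untreated cells (-0.29, adjusted p = 0.0195). The count of falls was 3 without TGFB1 replicate 2 or untreated replicate 1 and 2 without untreated replicate 3.

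Of 20 mitochondrial aminoacyl-tRNA synthetase genes and their kin, 2 (10.0%) fell and 1 (5.0%) rose. Both shares were below the 14.6% and 15.8% of all tested genes. Gatb (-0.46, adjusted p = 0.0269) and Iars2 (-0.21, adjusted p = 0.0464) fell and each lost the call in some refits. The list had no call without untreated replicate 1 or 3, and 1 gene or none fell without any other library. Of 14 genes for transcription and upkeep of mitochondrial DNA, 2 (14.3%) fell and 0 rose, beside 14.6% and 15.8% of all tested genes. With an unadjusted p under 0.05, 3 had negative and 1 had positive values. The falls were those of the termination factor gene Mterf1a (-0.44, adjusted p = 0.0146, with 30.5% shared sequence) and the protease gene Lonp1 (-0.36, adjusted p = 0.0183). Neither was called without untreated replicate 1 or without untreated replicate 3, and Lonp1 was not called without TGFB1 replicate 2 or 3. The list's count of falls was 1 without TGFB1 replicate 2 and 2 without TGFB1 replicate 3.

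Among 9 nuclear regulators of mitochondrial genes 2 (22.2%) fell and 2 (22.2%) rose, beside 14.6% and 15.8% of all tested genes. Ppargc1a, a coactivator known for driving mitochondrial gene expression, had 0.299, 0.72 and 1.24 TPM with TGFB1 against 5.81, 5.67 and 5.82 TPM in untreated cells (log2 fold change -1.98, SE 0.204, adjusted p = 0.00122). Its groups lay far apart, with TGFB1 replicate 1 lowest. Its relative Ppargc1b also fell (-0.85, adjusted p = 0.0181), though not without TGFB1 replicate 2 or without the filter on low values. Gabpb1, a subunit of the ETS-class factor GABP, rose (0.29, adjusted p = 0.0138), except without TGFB1 replicate 2 or untreated replicate 3. Gabpa (-0.16, adjusted p = 0.228), Nrf1 (-0.03, adjusted p = 0.862) and Yy1 of the same list were not called. Myc, known for raising ribosome production, had 35.0, 13.1 and 11.0 TPM with TGFB1 against 7.12, 6.95 and 6.18 TPM in untreated cells (1.24, adjusted p = 0.0494). TGFB1 replicate 1 stood far above the rest in Myc, and the call was lost without TGFB1 replicate 2, any untreated library or the filter on low values, and with median-of-ratios scaling, quantile normalization or a pseudocount of 5.

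The messenger RNAs that the mitochondrial ribosome translates are listed here beside its proteins. Of 13 mitochondrially encoded messenger RNAs 8 (61.5%) rose and 0 fell, beside 15.8% and 14.6% of all tested genes. With an unadjusted limma p under 0.05, 11 had positive and 0 had negative values. The median log2 fold change was 0.24. The complex I subunit mt-Nd5 had 2050, 2130 and 2220 TPM with TGFB1 against 1670, 1620 and 1700 TPM in untreated cells (0.36, SE 0.052, adjusted p = 0.00393). Others were mt-Nd4l (0.34, with 98.9% shared sequence), mt-Nd6 (0.30) and mt-Nd4 (0.29, with 62.8% shared sequence). Leaving out 1 library at a time gave 3 to 11 rises. The count was 3 without TGFB1 replicate 2, TGFB1 replicate 3 or untreated replicate 2, 4 without untreated replicate 1, and 1 without the filter on low values. The mitochondrial ribosomal RNAs were not analysed here.

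Of 79 cytosolic ribosomal protein genes 30 (38.0%) fell and 0 rose, beside 14.6% and 15.8% of all tested genes. With an unadjusted limma p under 0.05, 44 had negative and 0 had positive values. The median log2 fold change was -0.16. Rps27 had 2880, 3330 and 3440 TPM with TGFB1 against 5180, 5300 and 5210 TPM in untreated cells (-0.71, adjusted p = 0.0013). Rpl5 (-0.65, adjusted p = 0.00101), Rpl21 (-0.47, adjusted p = 0.00197) and Rps19 (-0.39, adjusted p = 0.00252) also fell. Many of these genes have near-identical copies, and among the 29 with under 25% shared sequence 10 fell. The count of falls was 51 without TGFB1 replicate 1, 11 and 13 without TGFB1 replicates 2 and 3, 13 and 12 without untreated replicates 1 and 3, 12 with no filter or with quantile normalization, and 18 after rescaling without mitochondrially encoded and abundant genes. Whether the cytosolic and mitochondrial lists differ from each other was not tested.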

How the data were processed

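RNA of 6 libraries, 3 of m1102 cells with TGFB1 and 3 untreated, was compared. Per the labels' protocols, poly(A) RNA was selected from 250 ng of total RNA and a strand-marking kit was used. Kallisto 0.44.0, sleuth 0.30.0 and GRCm38 are named in the submitters' processing notes without their roles. Annotation, strand use and the step from transcripts to genes: not given in the sources used here. Values are a TPM-scale signal as deposited by the authors, corrected for length and depth. Column totals differ, so these are not plain TPM, and no counts or depths can be had from them, so no count test was run. The column names carry a prefix, Mono, that the sample titles lack. Every library column was used.

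Rows with a mean of at least 1 TPM (12257) were fitted as log2(TPM + 1) with limma 3.58.1 in R 4.3.3 (lmFit, eBayes with trend, two-sided, Benjamini-Hochberg over all tested rows, called under 0.05). Fold changes on this scale understate those of low genes. In 286 tested rows the values equalled those of another row, and both were kept. Steps were tested on simulated data.

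The members, gene lists and tests were chosen with earlier results of these data known. The text names, per subunit, up to 8 falls and 8 rises, the 2 highest and 2 lowest levels, a fixed set of genes, and up to 4 called genes per list. The remaining called members, Mrpl52, Gabpa, Nrf1, Yy1 and the neighbour genes with their members were named after their values were seen. Bacterial counterparts and subunits were assigned from textbook knowledge. Shared sequence is the share of a gene's 31-base words found in a transcript of another GENCODE M21 gene, computed with Python 3.11.15. Words were matched on either strand, so overlap with a neighbouring gene on the other strand also counts as shared. Neighbours and gene positions are from GENCODE M21 on GRCm38. Protein sequences were not used here. Some genes of the lists are not reported here by name.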

Additional observations from a re-analysis of the deposited data

How the results depend on the processing

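The median log2 fold changes of both subunits stayed below 0 in every setting tried. Leaving out 1 library at a time gave -0.132 to -0.064 for the large and -0.125 to -0.029 for the small subunit. Calls moved more. Leaving out 1 library gave 4 to 15 falls and 1 to 2 rises in the large subunit, and 2 to 9 falls and 0 to 2 rises in the small subunit. Over all tested genes it gave 1113 to 2024 rises and 917 to 1926 falls, and over the mitochondrial lists 5 to 16 rises and 6 to 19 falls. Without untreated replicate 3, 15 of the 22 calls were lost. At the fewest, 4 of 49 large and 2 of 29 small subunit genes fell, and 917 of 12257 tested genes. The share of falls was not compared with that of all tested genes in each refit. The larger share among these genes is therefore given for all 6 libraries only. Without the filter on low values, 7 large and 5 small subunit genes fell, 1 large subunit gene rose, and 3 genes of the mitochondrial lists rose. A rescaling that left out mitochondrially encoded genes and the 20 most abundant rows moved the median of all genes by 0.048. With it 4 large subunit genes rose and 5 small subunit genes fell. It ended the large subunit falls of Mrpl14, Mrpl48 and Mrpl54 and kept the other large subunit falls and the rise of Mrps33. Median-of-ratios scaling left 1 rise in the large subunit. The cause of these changes was not tested. Other pseudocounts, a filter of 5 TPM and repeated rows kept once lost none of the 22 calls, and 12 genes not called were called in some refit. Same-numbered libraries did not deviate together in all pairs (r = 0.198, 0.153 and -0.0384), so the numbers were not taken to pair the samples. With the replicate block 9 large and 8 small subunit genes fell and 3 and 1 rose, and 2 of the 22 calls were lost. With unknown depth, the precision of low levels cannot be computed.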

Other observations

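The table also holds 5 pseudogene rows with symbols of this family, which were not members. Mrpl23-ps1, a processed pseudogene on chromosome 2 with 95.5% of its sequence in another gene, had 115, 108 and 124 TPM with TGFB1 against 125, 124 and 127 TPM in untreated cells and was not called by limma (log2 fold change -0.11, adjusted p = 0.219). Its level was above that of Mrpl23 in every library, where Mrpl23 lay between 11.6 and 19.3 TPM with TGFB1 and between 23.3 and 29.2 TPM in untreated cells. Mrpl48-ps, with 56.8% shared sequence, had 8.85, 9.39 and 9.05 TPM with TGFB1 against 13.3, 11.6 and 10.4 TPM in untreated cells and fell (-0.33, adjusted p = 0.0442), as Mrpl48 did. The 3 Mrps36 pseudogene rows were listed at 0 in every library.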
